A study of Mus musculus with 4 samples.

Results

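Transcript levels of 8 genes of cholesterol synthesis and of its regulator SREBP2 were examined in wild-type peritoneal B1a cells (2 libraries) and wild-type splenic follicular B2 cells (2 libraries). The genes, Hmgcs1, Fdps, Fdft1, Sqle, Lss, Cyp51, Srebf2 and Insig1, were taken by name from the 20599 gene symbols of the deposited tables, and all 8 were present, each as a single gene entry. By the methods, the mice were control littermates of Dnmt3a-deficient mice, and the deficient libraries were not analysed here. All libraries came from untreated C57BL/6 mice of wild-type genotype, labeled as 4 weeks of age. The study's methods give an older age for the mice that provided B2 cells, so the effects of cell type, tissue and possibly age cannot be told apart in these data. Cells were sorted by flow cytometry, B1a cells by a gate that included CD23- IgM+ CD5+ in the peritoneal wash and B2 cells by a gate that included IgD-high IgM-low CD21+ in the spleen, and RNA was sequenced in bulk. Fewer cells of a type and less RNA per cell cannot be told apart in such libraries.

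Cells make cholesterol from acetyl-CoA by a long chain of enzymes of the cytosol and the endoplasmic reticulum. The first steps form mevalonate and then the isoprenoid farnesyl diphosphate, which also serves to lipidate proteins, and the later steps join farnesyl units into squalene and fold and trim it into sterols. SREBP2, encoded by Srebf2, is a transcription factor held in the endoplasmic reticulum membrane by its escort SCAP and the INSIG proteins while sterols are plentiful. When sterols fall, SREBP2 moves to the Golgi apparatus, is cut free by proteases and enters the nucleus, where it activates the synthesis enzymes, its own gene and Insig1. In lymphocytes this program is known for its induction when resting cells are activated to grow and divide.

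The promoters of the SREBP2 gene itself, of Hmgcs1, which varied widely between replicates, and of Cyp51, which had the smallest p-value of the 8 genes, are shown, because SREBP2 is known to act through short promoter elements named sterol regulatory elements, next to CCAAT boxes bound by NF-Y. RefSeq windows of 300 bases that span the annotated start of transcription, on build GRCm38.p6, were found for 5 of the 8 genes (Cyp51, Insig1, Lss, Hmgcs1 and Srebf2). Both strands were searched, and capitals mark the letters TCACNCCAC or its overlapping short form TCACCCCA, and CCAAT, which reads ATTGG on the other strand. The windows of Hmgcs1 (13, forward strand, chr13:119690101-119690400), Srebf2 (15, forward strand, chr15:82147019-82147318) and Cyp51 (5, reverse strand, chr5:4104648-4104947) read 5′ to 3′ along each gene as follows.
Hmgcs1: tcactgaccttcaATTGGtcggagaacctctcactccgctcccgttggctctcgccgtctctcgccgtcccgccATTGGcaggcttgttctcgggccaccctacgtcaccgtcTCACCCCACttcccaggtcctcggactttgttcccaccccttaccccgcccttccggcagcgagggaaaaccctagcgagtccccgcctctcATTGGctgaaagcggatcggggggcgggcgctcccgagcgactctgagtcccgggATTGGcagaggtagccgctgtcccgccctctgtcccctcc
Srebf2: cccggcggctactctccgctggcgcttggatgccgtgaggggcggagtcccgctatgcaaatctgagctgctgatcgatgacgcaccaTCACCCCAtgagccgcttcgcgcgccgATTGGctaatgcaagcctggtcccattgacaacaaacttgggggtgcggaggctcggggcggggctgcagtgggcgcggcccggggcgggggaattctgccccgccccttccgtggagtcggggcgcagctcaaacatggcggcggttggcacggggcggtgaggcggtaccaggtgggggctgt
Cyp51: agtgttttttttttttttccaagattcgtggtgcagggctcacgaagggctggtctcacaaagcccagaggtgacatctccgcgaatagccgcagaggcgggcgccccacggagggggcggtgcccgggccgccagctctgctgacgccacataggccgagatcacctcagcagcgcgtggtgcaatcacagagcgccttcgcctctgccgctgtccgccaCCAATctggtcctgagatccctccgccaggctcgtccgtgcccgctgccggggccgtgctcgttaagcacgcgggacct

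The longer spelling, TCACNCCAC, was found in the Hmgcs1 window, where it begins 137 bases before the start of transcription, and in 1.24% of all 32851 promoter windows. The short form, TCACCCCA, was found in the windows of Hmgcs1 and Srebf2 and in 1.56% of all windows. CCAAT was found in all 5 windows, 4 times in that of Hmgcs1, and in 37.4% of all windows. CACGTG, an E-box that SREBP proteins can also bind, was found only in the Insig1 window among the 5, and in 7.15% of all windows. A match is a description of the letters, and no match says only that these letters are not in the window.

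The 4 libraries held between 11032732 and 18588623 counts in all, so that 3 counts, the floor used here, equal 0.161 to 0.272 CPM (counts scaled to a common library total, here before the TMM factors that all levels of genes carry). This floor covers counting error only, since no molecular identifiers are described. The summed levels of the B1a and follicular marker genes followed the labels. In the edgeR test given below, 3 of the 4 B1a markers were called higher in B1a, and Cd5 did not pass (adjusted p = 0.146). Of 5 pan-B cell genes, Cd79a and Ms4a1 were called higher in B1a and Cd22 higher in B2 cells. These directions were called for 4.24% and 1.5% of all tested genes. The summed level of 4 B1a markers lay between 766 and 1034 CPM in B1a and between 69.4 and 73.4 CPM in B2 libraries, that of the follicular markers Fcer2a and Cr2 between 153 and 162 CPM in B1a and between 1902 and 1942 CPM in B2 libraries, and that of 5 pan-B cell genes between 5568 and 6666 CPM throughout. The 8 T cell genes summed to between 80.8 and 127 CPM in B1a and between 100 and 106 CPM in B2 libraries, and 3 mast cell genes to between 5.13 and 17.4 CPM in B1a and at most 0.941 CPM in B2 libraries. Of 4 neutrophil genes, 3 were in the tables and had 0 counts in B1a libraries and at most 6.64 CPM in B2 libraries. Genes with at least 1 count numbered 11290 and 12456 in B1a replicates 1 and 2, and 14223 and 12934 in B2 replicates 1 and 2. By the methods, fewer cells may have been sorted for a B1a sample than for a B2 sample. The part of cell number in the levels and replicate gaps below was not tested. The B1a libraries stood apart from each other more than the B2 libraries did. Over the 12078 genes that passed the filter on low counts, the share that differed more than 2-fold between replicates was 29.2% in B1a and 6.38% in B2 cells (on CPM + 0.5). The 5 erythroid genes, which summed to 78.8 CPM in B1a replicate 1 and 504 CPM in replicate 2, also separated the B1a replicates. The part of these other cell types in the results below was not tested.

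None of the 8 genes passed the threshold between B1a and B2 cells in edgeR's quasi-likelihood test (0 of 8 at an adjusted p under 0.05, against 5.74% of the 12078 genes tested, 4.24% higher in B1a and 1.5% higher in B2 cells). At an unadjusted p under 0.05 there were 2 of 8, Cyp51 and Lss, against 20.9% of all tested genes. DESeq2 called 1 of 8, Cyp51, against 12.8% of all genes, and limma-voom called 0 of 8, against 7.26%. The fitted log2 fold change was above 0 for 3 genes and below 0 for 5, with a median of -0.23, beside a median of -0.03 over all tested genes. The libraries of the 2 cell types did not overlap for 3 of the 8 genes (Cyp51 higher in B1a, Lss and Insig1 higher in B2), against 54.3% of all tested genes. With 2 libraries a group, the smallest p that exact permutation allows is 0.33, and calls therefore depend on information shared between genes.

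**Figure D1:**
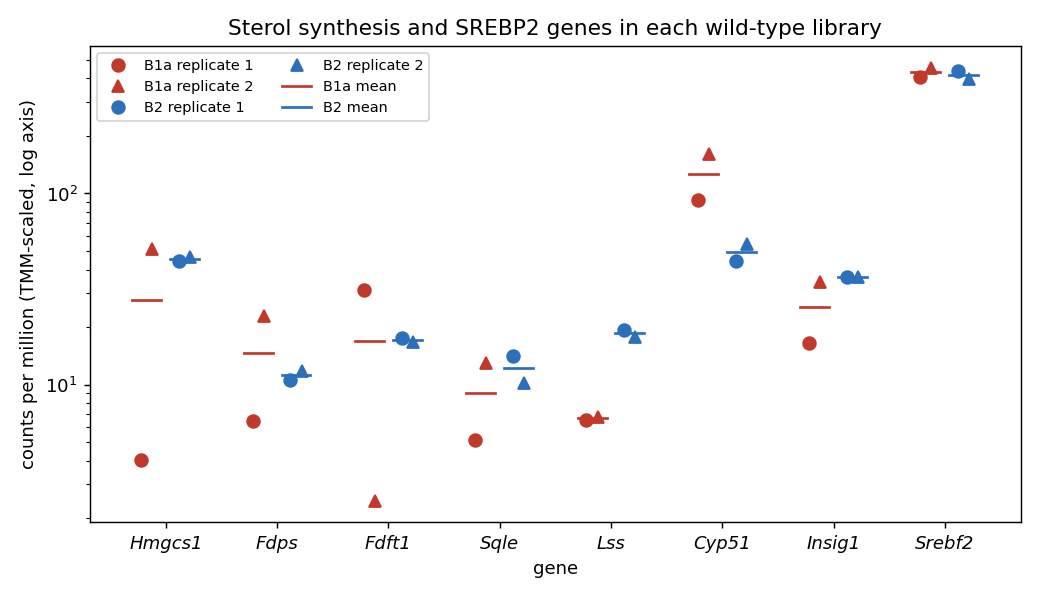
Level of each gene in each library, in TMM-scaled CPM on a log axis; points are libraries and bars are the means of 2 libraries. Both B2 libraries lie close together for every gene, whereas the B1a libraries are 12.7-fold apart for both Hmgcs1 and Fdft1, in opposite directions, and within 2-fold only for Lss, Cyp51 and Srebf2.

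Of the mevalonate arm, Hmgcs1, which makes the HMG-CoA that is reduced to mevalonate, lies on chromosome 13 (119690351 to 119708260, GRCm38.p6). Hmgcs1 reached 4.03 and 51.2 CPM in B1a, against 44.5 and 46.4 CPM in B2 libraries, with replicates 1 and 2 given in that order here and for the genes that follow. B1a replicate 1 was therefore low and B1a replicate 2 lay just above both B2 libraries, so the groups overlap. The counts behind the B1a values were 45 (exact 95% Poisson interval 32.8 to 60.2) and 569 (523 to 618), a gap far beyond counting error. The fitted log2 fold change, B1a minus B2, was -0.72 (SE 0.98, 95% interval -3.13 to 1.69, adjusted p = 0.765). With only replicate 1 kept for B1a it was -3.49, and with only replicate 2 it was 0.17. The window printed above with a match to TCACNCCAC is that of this gene.

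Fdps, which joins isoprene units into farnesyl diphosphate, lies on chromosome 3 (89093588 to 89101967). Fdps reached 6.45 and 22.8 CPM in B1a, against 10.6 and 11.8 CPM in B2 libraries. The B1a libraries lay on either side of the B2 libraries, with 72 (interval 56.3 to 90.7) and 253 (223 to 286) counts. The log2 fold change was 0.38 (SE 0.73, 95% interval -1.41 to 2.17, adjusted p = 0.842), and it was below 0 on the TPM scale, at -0.28 on log2(TPM + 1). With only B1a replicate 1 it was -0.80, and with only replicate 2 it was 1.02.

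Of the sterol arm, Fdft1, or squalene synthase, which draws farnesyl diphosphate into sterols, lies on chromosome 14 (63145150 to 63181687). Fdft1 reached 31.3 and 2.47 CPM in B1a, against 17.6 and 16.8 CPM in B2 libraries. Here B1a replicate 1 was the high library and replicate 2 the low one, the reverse of Hmgcs1 and Fdps, with 349 (interval 313 to 388) and 27 (17.8 to 39.3) counts. The means were nearly equal, 16.9 ± 20.4 CPM (SD, n = 2) for B1a and 17.2 ± 0.57 CPM (SD, n = 2) for B2, yet the log2 fold change of -0.03 had a 95% interval from -2.59 to 2.53 (SE 1.04, adjusted p = 0.992). A difference of several-fold in either direction lies within that interval. With only B1a replicate 1 the log2 fold change was 0.86, and with only replicate 2 it was -2.82.

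Sqle, squalene epoxidase, which oxidizes squalene and is a slow step of the chain, lies on chromosome 15 (59315092 to 59331193). Sqle reached 5.11 and 13.04 CPM in B1a, against 14.1 and 10.2 CPM in B2 libraries. B1a replicate 1 was again the low library and replicate 2 fell between the B2 libraries. The log2 fold change was -0.42 (SE 0.72, 95% interval -2.19 to 1.34, adjusted p = 0.818), or -1.25 with only B1a replicate 1 and 0.10 with only replicate 2.

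Lss, which folds oxidized squalene into lanosterol, lies on chromosome 10 (76531565 to 76557139) and differed in another way. Lss reached 6.54 and 6.74 CPM in B1a, against 19.3 and 17.7 CPM in B2 libraries, and of the 6 enzymes among the 8 genes it had the closest B1a replicates, 1.03-fold apart. Both B1a libraries were lower than both B2 libraries, on 73 and 75 counts against 223 and 338. The mean of the B2 libraries was 2.79-fold higher, with a log2 fold change of -1.48 (SE 0.54, 95% interval -2.80 to -0.15), which did not pass over all genes (adjusted p = 0.196, and between 0.12 and 0.344 in 10 alternatives with all libraries). The same order of the libraries was found in 29.1% of all tested genes. With only B1a replicate 1 the log2 fold change was -1.50, and with only replicate 2 it was -1.46. It was -1.41 without B2 replicate 1 and -1.55 without B2 replicate 2.

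Cyp51, the lanosterol demethylase, lies on the reverse strand of chromosome 5 (4080674 to 4104697) and showed the only difference of this size in the other direction. Cyp51 reached 92.5 and 160 CPM in B1a, against 44.5 and 54.5 CPM in B2 libraries. Both B1a libraries were higher than both B2 libraries, as in 25.3% of all tested genes. The mean was 126 ± 47.9 CPM (SD, n = 2) for B1a and 49.5 ± 7.11 CPM (SD, n = 2) for B2, a ratio of 2.55 that did not pass (log2 fold change 1.35, SE 0.31, 95% interval 0.60 to 2.10, adjusted p = 0.0673). Its adjusted p lay between 0.000103 and 0.16 in 10 alternatives with all libraries and under the threshold in 5 of them, and its log2 fold change remained above 0 in all of these. With only B1a replicate 1 the log2 fold change was 0.90, and with only replicate 2 it was 1.69. With 1 B2 library left out instead, it lay between these values. Each of these fits leaves a single library in 1 cell type, whose spread is then not measured, so no call was read from them. The 8 genes of cycling cells summed to between 194 and 252 CPM in B1a and between 148 and 157 CPM in B2 libraries. Their summed TPM overlapped (87.4 and 120 in B1a, 100.3 and 106 in B2 libraries). Of the 8, 1 was called (against 5.74% of all tested genes), Mki67, at 105 and 87.5 CPM in B1a and 23.4 and 40.5 CPM in B2 libraries. Both B1a libraries were higher for 3 of the 8 and both B2 libraries for 3 (against 25.3% and 29.1% of all tested genes). The part of cycling cells in the Cyp51 values was not tested.

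The 6 enzymes together summed to 146 and 256 CPM in B1a, against 151 and 157 CPM in B2 libraries. The B1a replicates stood on either side of the B2 libraries.

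Of the regulators, Srebf2, which encodes SREBP2, lies on chromosome 15 (82147269 to 82205379) and had the smallest standard error of the 8 genes. Srebf2 reached 409 and 456 CPM in B1a, against 438 and 398 CPM in B2 libraries. The libraries of the cell types were interleaved, on 4565 to 7623 counts each. The log2 fold change of 0.05 had a 95% interval from -0.25 to 0.35 (SE 0.12, adjusted p = 0.886). Its sign turned with the scaling, to -0.02 with upper quartile factors and -0.19 on log2(TPM + 1); the TPM scale moved the median gene by -0.25 relative to the TMM fit.

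Insig1, an endoplasmic reticulum protein that retains SREBP2 when sterols are plentiful and is itself induced by SREBP2, lies on chromosome 5 (28071412 to 28078662). Insig1 reached 16.6 and 34.4 CPM in B1a, against 36.4 and 36.5 CPM in B2 libraries. Both B1a libraries lay below both B2 libraries, replicate 2 by a small margin. The log2 fold change was -0.52 (SE 0.42, 95% interval -1.56 to 0.52, adjusted p = 0.576), or -1.14 with only B1a replicate 1 and -0.09 with only replicate 2.

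Between the B1a replicates, 5 of the 8 genes (Hmgcs1, Fdft1, Fdps, Sqle and Insig1) differed more than 2-fold, or 62.5% against 29.2% of all tested genes. The median absolute log2 difference was 1.15 for the 8 genes and 0.52 for all tested genes in B1a cells, and 0.13 and 0.21, respectively, in B2 cells. B1a replicate 2 was higher than replicate 1 for 7 of the 8 genes, all but Fdft1, against 52.2% of all tested genes. These shares describe 1 pair of libraries and carry no test.

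**Figure D2:**
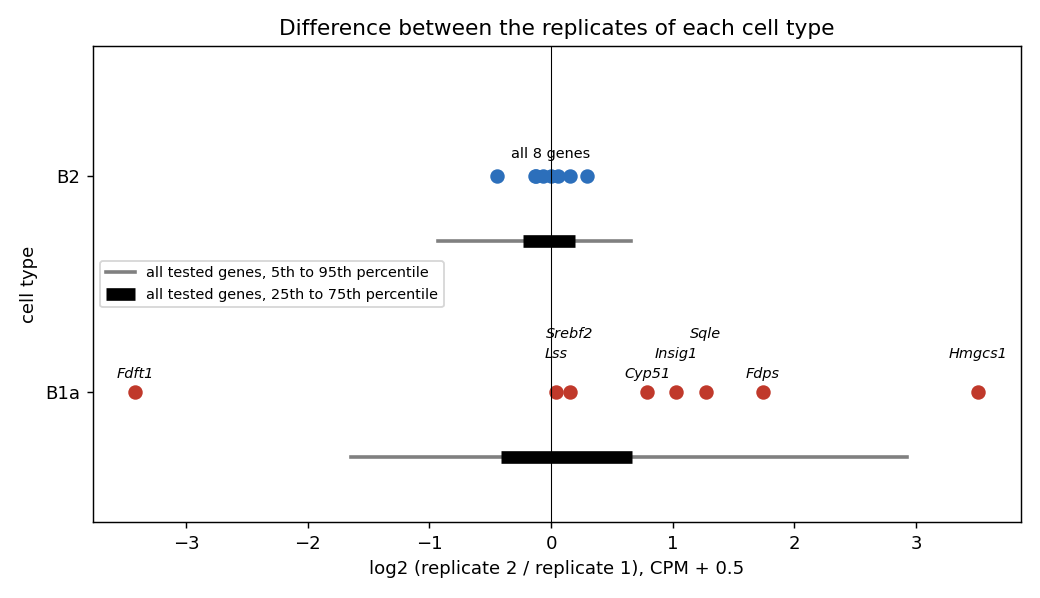
Log2 ratio of replicate 2 to replicate 1 within each cell type (x axis, on CPM + 0.5) for the 8 genes (points), with percentiles of all 12078 tested genes (bars below). In B1a cells Hmgcs1 and Fdft1 lie outside the 5th to 95th percentile of all genes, at opposite ends, whereas in B2 cells the 8 genes stay within 1.38-fold.

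Compared per length, on the deposited TPM scale, Srebf2 had the highest level of the 8 genes in every library, between 210 and 264 TPM. In B2 cells the next levels were those of Insig1 (38.4 and 37.9 TPM), Hmgcs1 (34.6 and 35.8 TPM) and Cyp51 (28.2 and 34.1 TPM), and then Fdps (22.4 and 26.95 TPM). The means of Hmgcs1 and Cyp51 differed by less than the SD of Cyp51 (4.13 TPM). Lss (17.3 and 15.6 TPM) and Fdft1 (17.1 and 16.1 TPM) could not be put in order beyond the spread of their replicates, and Sqle (14.3 and 10.2 TPM) was lowest. In B1a cells Cyp51 ranked 2 of 8 in both replicates, at 49.9 and 84.3 TPM, but the order below it was not shared: Hmgcs1 ranked 8 of 8 in replicate 1 at 2.70 TPM and 4 of 8 in replicate 2 at 33.4 TPM, and Fdft1 ranked 3 of 8 in replicate 1 at 25.9 TPM and 8 of 8 in replicate 2 at 1.99 TPM. Cyp51 made up 50.6% and 48.8% of the summed TPM of the 6 enzymes in the B1a replicates and 21.0% and 24.6% in the B2 replicates, a share that differed less between replicates than between cell types; it was chosen after its values were seen and was not tested.

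**Figure D3:**
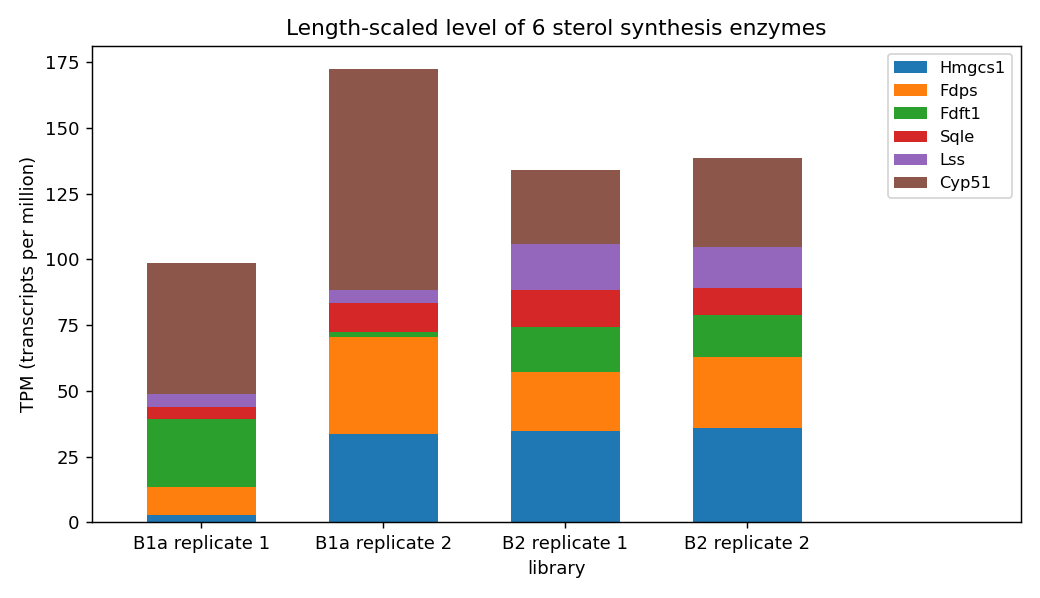
Summed TPM of 6 sterol synthesis enzymes in each library, stacked by gene. Cyp51 fills 50.6% and 48.8% of the bar in the B1a libraries and 21.0% and 24.6% in the B2 libraries, while the bars of the B1a replicates differ in height and in the Hmgcs1 and Fdft1 segments.

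The remaining enzymes of the pathway were read from a list of 15 genes, all of which were tested. None passed in edgeR's test (0 of 15, against 5.74% of all tested genes), 1 had an unadjusted p under 0.05 (against 20.9%), and DESeq2 and limma-voom each called 1 (against 12.8% and 7.26%); the median log2 fold change was 0.08. Lbr, a sterol reductase that also anchors chromatin to the nuclear envelope, had the highest mean TPM of the list, 169 and 118 in B1a and 176 and 168 in B2 libraries. Idi1, which isomerizes the isoprene unit before Fdps, had 1 count in B1a replicate 1 and 147 in replicate 2, against 205 and 310 in the B2 replicates, so that B1a replicate 1 was the low library, as for Hmgcs1. The list as a whole did not share this direction. B1a replicate 2 was higher than replicate 1 for 7 of the 15 genes (46.7%, against 52.2% of all tested genes). The B1a replicates differed more than 2-fold for 2 of the 15 (13.3%, against 29.2%), Idi1 and Nsdhl. Nsdhl went the other way, with 11.6 CPM in B1a replicate 1 and 2.97 CPM in replicate 2. Both genes were chosen after their values were seen.

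Of 9 genes that control SREBP2 or take up sterols, 1 rose in B1a cells and 0 fell (edgeR, against 4.24% and 1.5% of all tested genes), 4 had an unadjusted p under 0.05 (against 20.9%), and the median log2 fold change was 0.02. The one was Npc2, a small lysosomal protein that hands cholesterol to NPC1 for export from the lysosome. Npc2 reached 117 and 143 CPM in B1a, against 51.4 and 54.3 CPM in B2 libraries, a log2 fold change of 1.30 (SE 0.20, 95% interval 0.81 to 1.78, adjusted p = 0.0199). It did not pass without B2 replicate 1 (adjusted p = 0.0658) or on the TPM scale (between 0.0584 and 0.0667). Of 10 macrophage marker genes, 9 were present and summed to 533 and 455 CPM in B1a and to 173 and 207 CPM in B2 libraries. Of the 7 tested, 2 were called higher in B1a cells, Lyz2 and Apoe (against 4.24% of all tested genes). Both B1a libraries were higher than both B2 libraries for 6 of the 7, all but Csf1r (against 25.3% of all tested genes). Cd68, C1qa, C1qb and C1qc were among these 6 but did not pass. Without adjustment, edgeR's p lay below 0.05 for 5 of the 7 (against 20.9%). The libraries overlapped for Csf1r, at 16.9 and 21.9 CPM in B1a and 21.2 and 18.4 CPM in B2 (log2 fold change -0.03, edgeR adjusted p = 0.979). Gata6 had at most 1 count and Timd4 at most 6 in any library. The part of macrophage RNA in the Npc2 values was not tested.

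Insig2, the relative of Insig1 that does not depend on SREBP2, had 1 count in B1a replicate 1 and 182 in replicate 2, against 292 and 549 in the B2 replicates. The site-1 protease gene Mbtps1, which makes the first cut that frees SREBP2, had the highest mean TPM of this list, 106 and 86.2 in B1a and 116 and 108 in B2 libraries, with a log2 fold change of 0.02 (95% interval -0.36 to 0.39, adjusted p = 0.971). Insig2 was chosen after its values were seen.

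Of 8 genes of the LXR receptors, sterol efflux and storage, which act when sterols are in excess, 7 were tested and 0 passed in edgeR's test (against 5.74% of all tested genes). Of these, 3 had an unadjusted p under 0.05 (against 20.9%), DESeq2 and limma-voom called 0 (against 12.8% and 7.26%), and the median log2 fold change was -0.02. Mylip, a ubiquitin ligase gene that the LXR receptors induce, had the highest mean TPM of the list, with 116 and 103 TPM in B1a and 189 and 179 TPM in B2 libraries. Both B1a libraries were lower, but the log2 fold change of counts, -0.51 (SE 0.14, 95% interval -0.86 to -0.16), did not pass (adjusted p = 0.118). Nr1h3, which encodes the receptor LXR-alpha and was chosen after its values were seen, had 0 counts in both B1a libraries and 25 and 49 counts in the B2 libraries, and did not pass (adjusted p = 0.149). Ch25h, which makes an oxysterol that restrains SREBP2 and is named as the gene of the list that was not tested, had 0 counts in all 4 libraries, which allows at most 0.272 CPM by the floor of 3 counts.

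**Figure D4:**
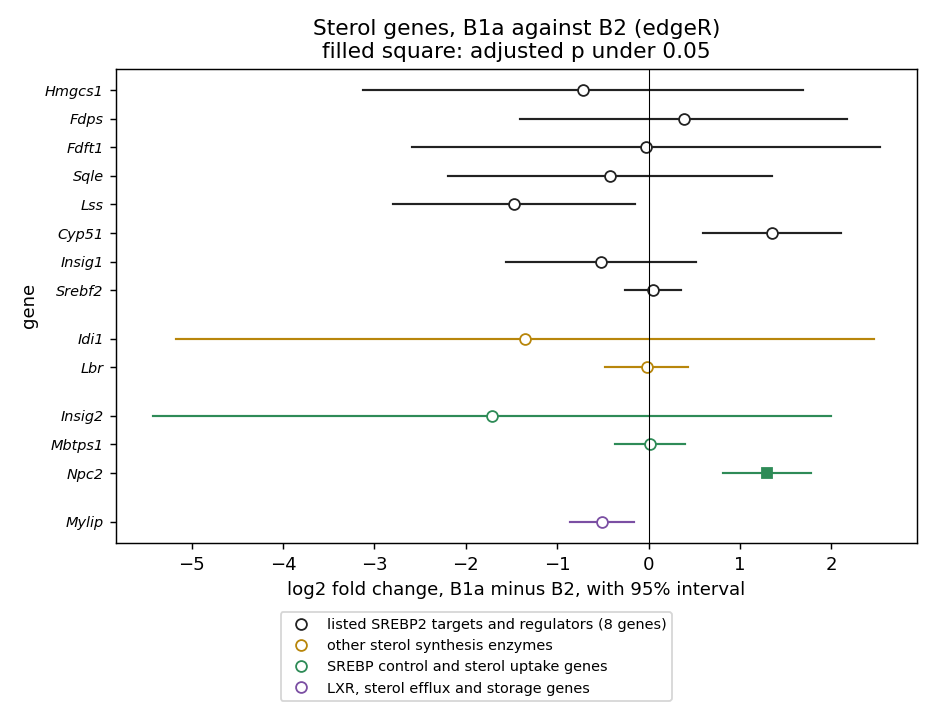
Log2 fold change of counts, B1a minus B2, with its 95% interval from edgeR for the 8 genes and for 6 genes of the 3 other lists that are described in the text; a filled square marks an adjusted p under 0.05. Npc2 at 1.30 is the only filled square, and the interval of Srebf2 runs from -0.25 to 0.35, while those of Idi1 and Insig2, each with 1 count in B1a replicate 1, are the widest.

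The genes whose log2 CPM, centered on its own mean over the 4 libraries, lay nearest to the mean profile of the 8 genes were Cul4a, Srsf3, Xrn1, Syne1 and D5Ertd579e, at Euclidean distances of 0.03 to 0.07 on the log2 scale. That mean profile lay at -0.56 and 0.09 in the B1a replicates and at 0.25 and 0.22 in the B2 replicates. The 8 genes themselves lay between 0.32 (Insig1) and 3.08 (Fdft1) from their own mean profile. The 5 genes were picked as the nearest of all tested genes outside the 8. Their smaller distances follow from that choice and carry no test.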

How the data were processed

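Bulk RNA-Seq libraries of wild-type B1a (n = 2) and B2 cells (n = 2) were examined. Per the methods, reads were mapped by the authors to mm10 and RefSeq genes were quantified by RSEM, version 1.2.29 by the submitters' processing notes (the methods name another version). The authors deposited an expected count per gene entry, not normalized, and TPM, scaled to a common total; entries of one symbol were summed here. Rounded expected counts that passed filterByExpr were given TMM factors, and the quasi-likelihood test of edgeR 4.0.16 (R 4.3.3) was applied without a replicate block, since nothing pairs the replicates; p-values were adjusted by Benjamini-Hochberg over all 12078 genes tested, with a threshold of 0.05. Standard errors and 95% intervals came from the F statistic. DESeq2 1.42.0 and limma 3.58.1 served as alternatives. EBSeq, which the study used, was not run. Per the methods, the cells of each group came from 2 control mice.

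The 8 genes, the other lists and the promoter letters were chosen with earlier results of these data known. Named genes were the 8 genes, those called or with the highest mean TPM in each list, and the 5 nearest profiles; others are stated as chosen later. The columns of FPKM and posterior estimates were not used. Some genes of the lists are counted but not reported singly here.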

Additional observations from a re-analysis of the deposited data

How the results depend on the processing

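Of 80 log2 fold changes of the 8 genes under 10 alternatives that keep all libraries, 67 kept their direction and side of the threshold, 6 passed it and 7 turned in sign. The 6 were Cyp51 in 5 alternatives and Hmgcs1 with the replicate block. Those that turned were Fdps (-0.28 with limma on log2(TPM + 1), with or without the filter on low values, and -0.30 on log2(TPM + 0.1)) and Srebf2 (-0.19 in each of these 3 fits and -0.020 with upper quartile factors).

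Of the 8 genes, 1 was called, Cyp51, with DESeq2, with at least 10 counts in every library, without a filter beyond 1 count, and with limma-voom weighted by cell type, an alternative chosen after seeing the data; 2 were called with the replicate block, Cyp51 and Hmgcs1. Of the other 15 enzymes, 1 was called with DESeq2, limma-voom, the replicate block, the weights, and both other filters on counts. Of the 9 control and uptake genes, 0 were called in the 3 TPM fits, 3 with the weights and 4 with the replicate block. Of all 12078 genes tested, 693 were called in the main fit (512 higher in B1a, 181 higher in B2). Of the same 12078, 1550 were called with DESeq2, 877 with limma-voom, 1415 with the weights and 1481 with the replicate block (889 and 592). With at least 10 counts in every library 944 of 10059 were called, and without a filter beyond 1 count 1141 of 14730. On log2(TPM + 0.1) 359 of 12027 were called (196 and 163). On log2(TPM + 1) it was 499 of 12027 with the filter (266 and 233) and 202 of 14738 without it (117 and 85). The cause of these shifts was not tested. The replicate numbers share no stated origin, and the deviations of same-numbered libraries correlated at -0.0417, so the block has no basis in the design.

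Leaving out 1 library gave 0 to 6 calls among the 8 genes, 0 to 6 among the 15 enzymes, 0 to 6 among the 9 control and uptake genes, 0 to 4 among the LXR genes and 539 to 6143 among all genes. The highest counts came without a B1a library, for all genes as well as for the 8 genes. In those fits only the closer B2 pair measures the spread, and the lone library is assumed to vary like it. No difference between the cell types was therefore read from these counts. Log2 fold changes then lay between -3.49 and 0.17 for Hmgcs1, -0.80 and 1.02 for Fdps, -2.82 and 0.86 for Fdft1, -1.25 and 0.10 for Sqle, and -0.032 and 0.12 for Srebf2, so the direction of these 5 genes rests on which library is kept; Cyp51 (0.90 to 1.69), Lss (-1.55 to -1.41) and Insig1 (-1.14 to -0.09) kept theirs.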
